A study of Homo sapiens with 4 samples.

Results

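Potassium channel genes were followed in the ovarian carcinoma line SKOV3 by taking every row of the deposited count table whose gene symbol starts with KCN and does not end in -AS1, -IT1 or -AS2. This gave 103 of the 65988 rows of the table, while 18 further KCN rows were left out by their endings. Of the 103, 23 were listed at 0 in all 4 libraries and were treated as not measured, 18 had reads but too few to test, and 62 were tested. The study sequenced cisplatin-resistant SKOV3 (CR, 2 libraries), a line selected from wild-type cells by 6 rounds of cisplatin over 5 months, each round holding 4 hours of drug at a rising concentration and then 3 weeks of drug-free growth. It was set against wild-type SKOV3 (WT, 2 libraries), labelled cisplatin susceptible. Both kinds of cells were harvested untreated in log growth, and polyadenylated RNA was sequenced. The series calls the libraries of a group biological replicates, and the labels do not say that the selection was repeated, so p-values measure the spread between libraries of 1 resistant line and 1 parent. Time in culture may have differed along with drug exposure, and the effects of each cannot be told apart.

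Potassium channels are membrane pores that let potassium ions pass down their gradient, usually out of the cell, and so hold the membrane potential negative. Voltage-gated pores open on depolarization, inward rectifiers (KCNJ) pass current more readily inward than outward, and tandem pore channels (KCNK) carry a background leak. The BK, SK and IK channels (KCNM and KCNN) open with calcium. Most pores are assembled from several subunits, and auxiliary proteins change how they gate or traffic. In epithelial and carcinoma cells these channels are known for roles in membrane potential, cell volume and the movement of salt and water.

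Library totals were 65259794 and 79592903 counts in resistant replicates 1 and 2, against 43658695 and 53502349 in wild-type replicates 1 and 2. Levels are given in CPM (the count as a share of the library, on the usual CPM scale, with library sizes adjusted by the TMM method), and 1 CPM stood for 42.6 to 83.2 counts. As a check of the cell line, ERBB2, amplified in SKOV3, was at 2840 and 2073 CPM in resistant cells against 5246 and 5767 CPM in wild-type cells, and the ovarian lineage factor PAX8 was present in all libraries. Of the 6 epithelial and ovarian markers listed, 4 were lower and 1 was higher in resistant cells. Of 5 fibroblast markers, COL1A1 and LUM were higher and 0 were lower. COL3A1 and PDGFRB had at most 13 counts in a library, and THY1 was at 0. The summed level of the 5 was 24.0 and 27.4 CPM in resistant cells against 8.92 and 16.0 CPM in wild-type cells. The summed level of 3 endothelial markers was 0.81 and 0.974 CPM in resistant cells against 10.6 and 8.37 CPM in wild-type cells. Most of that sum was PECAM1, with 51 and 71 counts in resistant cells against 435 and 393 in wild-type cells. VWF, also lower, had at most 33 counts in a library and CDH5 at most 9. The summed level of 3 blood cell markers was 0.09 and 0.337 CPM in resistant cells, with no reads in wild-type cells and HBB at 0 throughout. It was nearly all PTPRC, with 6 and 27 counts in resistant cells. The part of these shifts in the channel results was not tested, and in bulk RNA fewer cells of a type and less RNA per cell cannot be told apart.

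Potassium channel genes changed in both directions, with a rise in several inward rectifier genes and a fall in several tandem pore genes. Among members with a mean of at least 1 CPM in the higher group, the largest rise was that of the inward rectifier KCNJ15, at 15.5 ± 1.16 CPM in resistant cells against 0.0974 ± 0.138 CPM in wild-type cells (mean ± SD, n = 2 each). The largest fall among them was that of KCNIP1, a calcium-binding partner of voltage-gated channels, at 0.386 ± 0.27 CPM in resistant cells against 20.3 ± 1.87 CPM in wild-type cells. The most abundant member, the tandem pore gene KCNK1, rose modestly. Among the 62 tested members, 16 rose and 18 fell in resistant cells by the quasi-likelihood F test of edgeR, at 0.05 after Benjamini-Hochberg adjustment. That is 54.8% of them, where 45.3% of all 18602 tested genes were called (22.1% higher and 23.2% lower). Called changes of at least 2-fold were seen in 11 members upward and 14 downward, where 8.76% and 11.9% of all tested genes moved that far. The median log2 change was -0.21 over the tested members and 0.003 over all tested genes. Setting tested genes at 0 in a group to their bound could not move the members' median, since KCNJ9 stayed above it and KCNK15 below it. Passing the filter on low counts needs reads in at least 1 group, so a member present in only 1 group that was tested had to differ. KCNJ9 among the rises and KCNK15 among the falls are such members.

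**Figure D1:**
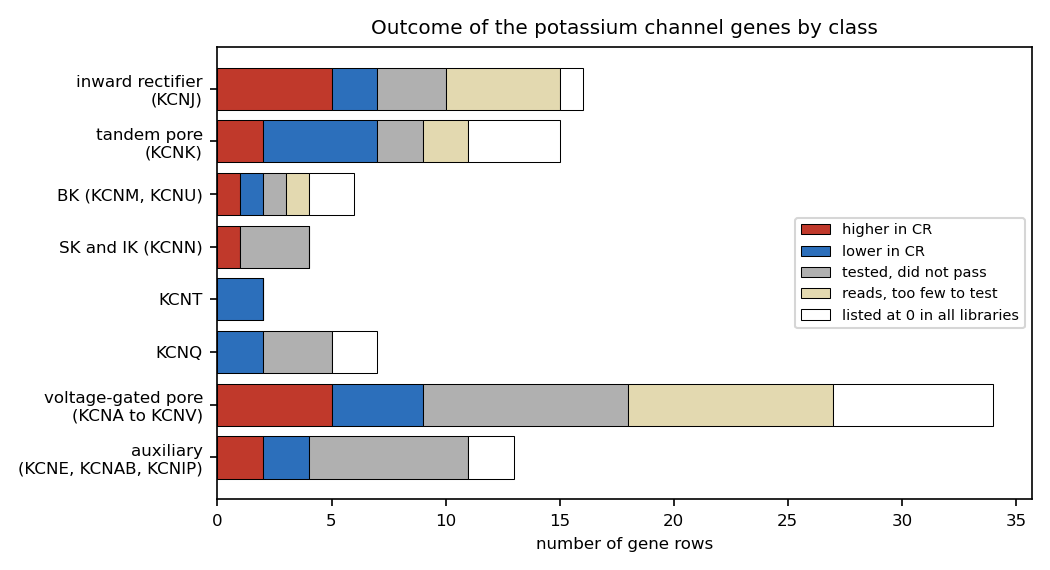
Number of gene rows in each channel class that were higher in resistant cells (CR), lower in them, tested without passing, read too rarely to test, or listed at 0 in all 4 libraries. The inward rectifiers hold 5 of the 16 rises and the tandem pore genes 5 of the 18 falls. These classes supply 10 and 9 of the 62 tested members. Of all tested genes, 22.1% were higher and 23.2% lower.

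Most members were scarce. The median of the mean level over the 4 libraries was 1.31 CPM for the tested members and 12.5 CPM for all tested genes, and 28 of the 62 tested members lay below 1 CPM. The standard error of a log2 change was accordingly larger, with a median of 0.39 for members against 0.18 for all tested genes. In CPM per kb of exon, the scale on which genes were compared with each other, KCNK1 led in both groups with a level of 60.4 ± 1.13 in resistant cells and 44.96 ± 0.425 in wild-type cells. The calcium-activated IK channel gene KCNN4 came second with 15.4 ± 2.66 CPM per kb in resistant cells and 12.1 ± 1.17 CPM per kb in wild-type cells (mean ± SD, n = 2 each). In wild-type cells the next were KCNK5 (10.3 ± 0.843 CPM per kb), KCNK6 (7.35 ± 0.659), KCNIP1 (6.05 ± 0.559) and KCNS3 (4.93 ± 0.11). In resistant cells the third place was taken by KCNJ16 (5.98 ± 0.16 CPM per kb), ahead of KCNK5 (4.54 ± 0.407), while KCNIP1 stood at rank 41. KCNK1 alone held 39.9% and 38.0% of the summed CPM of all members in the resistant libraries, against 30.7% and 29.5% in the wild-type libraries.

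**Figure D2:**
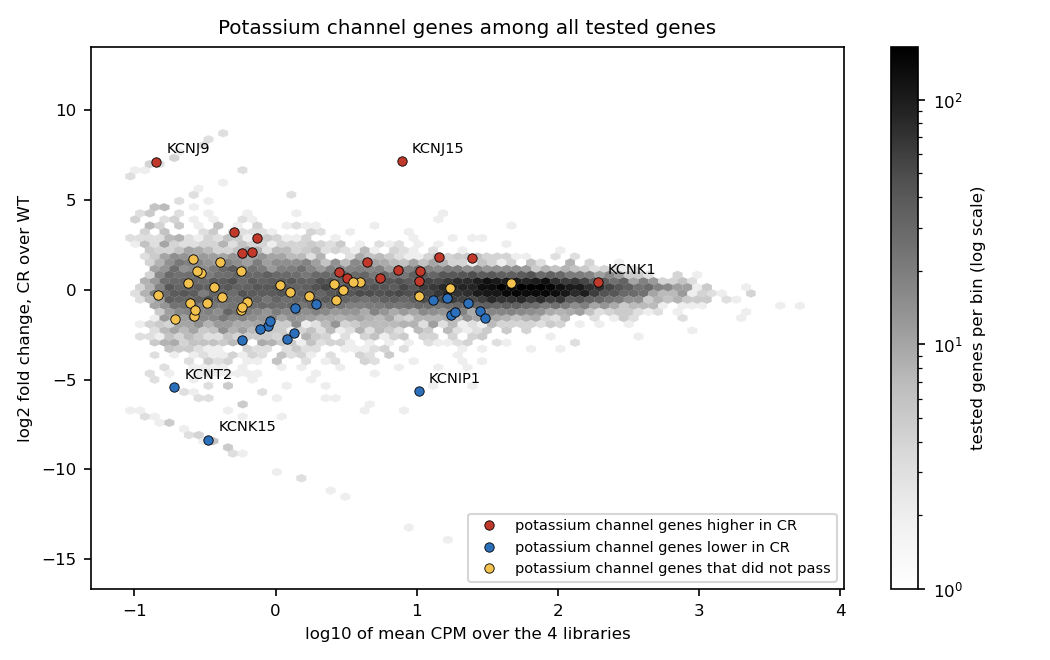
Log2 fold change of resistant over wild-type cells (CR over WT) against log10 mean CPM, with all 18602 tested genes as grey bins and the 62 tested potassium channel genes as points. KCNJ15 and KCNIP1 lie far outside the bulk of genes of their level, and KCNJ9, KCNK15 and KCNT2 rest on few reads, where a fitted fold depends on the counts added by the fit.

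Among inward rectifier genes, 5 of 10 tested were higher and 2 lower, with a median log2 change of 0.76. KCNJ15 on chromosome 21 (ENSG00000157551, 38155549 to 38307357 on GRCh38) encodes a pore subunit known from kidney. It had 1090 and 1223 counts, or 16.4 and 14.7 CPM, in resistant replicates 1 and 2, against 0 and 10 counts, or 0 and 0.195 CPM, in wild-type replicates 1 and 2. Both resistant libraries were high and the wild-type libraries nearly empty. The log2 change of resistant over wild-type cells was 7.17 ± 0.45 (± standard error, as for all log2 changes; edgeR adjusted p = 3.32e-07), and it was 6.31 without wild-type replicate 1. Without wild-type replicate 2 the remaining wild-type library had no reads, and the gene was at least 219-fold higher in resistant cells against a floor of 3 counts. Its neighbour KCNJ6, 34.2 kb away, had 5 and 1 counts in resistant cells against 12 and 2 in wild-type cells and was not tested. Of 16 tested genes within 1 Mb of KCNJ15, 3 were higher and 3 lower, with a median log2 change of 0.09.

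KCNJ16 encodes a subunit that is silent alone and joins other inward rectifier subunits, KCNJ10 and KCNJ15 among its known partners. Its levels were 38.6 and 37.2 CPM in resistant cells, against 11.2 and 10.9 CPM in wild-type cells, so the groups lay apart by far more than their spread. The log2 change was 1.78 ± 0.14 (edgeR adjusted p = 1.9e-06). KCNJ16 lies on chromosome 17 (70053429 to 70135608), and 91.8% of its span is covered by other annotated genes, so its counts are less certain. KCNJ10 had 6 and 2 counts in resistant cells against 7 and 0 in wild-type cells, too few to test. KCNJ2, a gene of strong inward rectification in heart and muscle, starts 33.1 kb beyond KCNJ16 and also rose, at 0.795 and 1.05 CPM in resistant cells against 0.164 and 0.0389 CPM in wild-type cells (log2 change 3.21 ± 0.68, edgeR adjusted p = 0.00267). The value for KCNJ2 was 4.51 without wild-type replicate 1 and 2.48 without wild-type replicate 2, since these libraries held 7 and 2 counts. Of the 7 tested genes within 1 Mb of KCNJ16, KCNJ2 included, 2 were higher and 1 lower.

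Promoter windows of KCNJ15, KCNJ16 and the BK subunit gene KCNMB3 are shown because they are the members called higher in which the same short word stands. The windows of KCNJ2, KCNA7, KCNH8 and KCNN1, which rose by more than KCNJ16 and KCNMB3, do not hold it. The sequences are from RefSeq on GRCh38.p14, 250 bases before to 50 after an annotated start, 5′ to 3′ on the gene's strand, with TGAGTCA, the consensus of AP-1 factors, in capitals. They lie at chr21:38272258-38272557 (plus strand), chr17:70074975-70075274 (plus strand, the first of 3 annotated starts) and chr3:179251065-179251364 (minus strand, the most downstream of 3 annotated starts).
KCNJ15: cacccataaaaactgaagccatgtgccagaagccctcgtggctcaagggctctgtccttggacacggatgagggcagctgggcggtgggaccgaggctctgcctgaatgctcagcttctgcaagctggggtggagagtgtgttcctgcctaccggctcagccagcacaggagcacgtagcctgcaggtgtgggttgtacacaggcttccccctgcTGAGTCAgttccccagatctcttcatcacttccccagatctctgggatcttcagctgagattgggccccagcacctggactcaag
KCNJ16: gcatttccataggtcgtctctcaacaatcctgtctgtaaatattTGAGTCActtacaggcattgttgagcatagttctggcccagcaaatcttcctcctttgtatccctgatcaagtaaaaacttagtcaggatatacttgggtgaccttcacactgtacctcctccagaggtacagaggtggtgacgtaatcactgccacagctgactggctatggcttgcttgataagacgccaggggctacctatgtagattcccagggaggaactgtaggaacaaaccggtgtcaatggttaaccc
KCNMB3: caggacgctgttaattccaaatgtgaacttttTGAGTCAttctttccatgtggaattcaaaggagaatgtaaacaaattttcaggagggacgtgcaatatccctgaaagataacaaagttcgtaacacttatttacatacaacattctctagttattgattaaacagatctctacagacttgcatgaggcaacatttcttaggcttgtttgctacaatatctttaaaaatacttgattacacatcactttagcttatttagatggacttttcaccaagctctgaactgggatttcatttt
The word was chosen after these sequences were read and was searched as TGAGTCA on both strands (TGACTCA on the other). Windows were at hand for 58 of the 80 members with reads. Of the members with a window, the word stood in at least 1 window of 3 of 14 that were higher, 0 of 11 that were lower and 2 of 19 that were tested and did not pass. These groups had 26, 13 and 33 windows, so the members that were higher had more chances to hold it. As the word was chosen from these sequences, the counts by direction are not a test. The share of all genes with the word in at least 1 window was not counted. By window, 5 of 91 windows of members held it, or 5.49%, where 4.95% of all 35116 windows did. A match describes these letters and does not show a binding site, and gene counts do not say which start was used.

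Of the other called inward rectifier genes, KCNJ11 and KCNJ12 fell while KCNJ9 and KCNJ14 rose. KCNJ11, the pore of the ATP-sensitive channel of beta cells and muscle, was at 0.33 and 0.289 CPM in resistant cells, against 2.07 and 2.14 CPM in wild-type cells. Its log2 change was -2.76 ± 0.39 (edgeR adjusted p = 0.000181). KCNJ8, the other pore of ATP-sensitive channels, was at 0.87 and 0.661 CPM in resistant cells and 0.352 and 0.389 CPM in wild-type cells. This did not pass (log2 change 1.04 ± 0.50, edgeR adjusted p = 0.114), although the groups did not overlap, as in 73.6% of all tested genes. By CPM per kb, KCNJ11 made up 22.7% and 25.3% of the sum of both pores in resistant cells, against 82.0% and 81.0% in wild-type cells. ABCC8, the sulfonylurea receptor that pairs with KCNJ11, was also lower, at 1.98 and 2.81 CPM in resistant cells against 4.62 and 5.06 CPM in wild-type cells (log2 change -1.01 ± 0.24, edgeR adjusted p = 0.00603).

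KCNJ12, a strong rectifier gene with the near-identical copy KCNJ18, had 5 and 17 counts in resistant cells against 51 and 43 in wild-type cells. It fell by 2.81 ± 0.62 on the log2 scale (edgeR adjusted p = 0.00362), with -3.71 without resistant replicate 2, and reads shared with KCNJ18 make it uncertain. KCNJ18 itself had 0 and 2 counts in resistant cells and none in wild-type cells. KCNJ9, which encodes a subunit of G protein-activated channels, had 22 and 20 counts in resistant cells against none in either wild-type library. It was at least 8.78-fold higher against a floor of 3 counts over the group. KCNJ9 passed the filter on low counts through the resistant libraries alone. A difference was thus fixed in advance, and its place among the rises is not support. KCNJ14 rose slightly, at 11.2 and 13.2 CPM in resistant cells against 8.99 and 8.49 CPM in wild-type cells (log2 change 0.48 ± 0.17, edgeR adjusted p = 0.0354), and its edgeR adjusted p was 0.0804, 0.159 and 0.132 without wild-type replicate 1, wild-type replicate 2 and resistant replicate 2. KCNJ1 and KCNJ5 were tested and did not pass, KCNJ3 and KCNJ4 had at most 9 counts in any library, and KCNJ13, which lies wholly within GIGYF2, was listed at 0.

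Tandem pore genes split, with 2 of 9 tested genes higher and 5 lower and a median log2 change of -1.18. This is 77.8% called, where 45.3% of all tested genes were. KCNK1 was at 221.8 and 216 CPM in resistant cells against 162 and 164.1 CPM in wild-type cells, a log2 change of 0.42 ± 0.11 (edgeR adjusted p = 0.00708). The groups did not overlap, yet the call was lost without wild-type replicate 1 (edgeR adjusted p = 0.0721) and without wild-type replicate 2 (0.0656). KCNK3, an acid-sensitive leak channel known from pulmonary artery and adrenal cells, was at 6.86 and 6.38 CPM in resistant cells against 2.04 and 2.41 CPM in wild-type cells. It rose by 1.57 ± 0.22 on the log2 scale (edgeR adjusted p = 0.000157). Of the 43 tested genes within 1 Mb of KCNK3 on chromosome 2, 2 were higher and 17 lower, with a median log2 change of -0.29.

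KCNK5 and KCNK6, the next most abundant of the class, both fell. KCNK5, a channel opened by alkaline pH and known from kidney epithelium, was at 18.1 and 15.9 CPM in resistant cells against 36.5 and 40.9 CPM in wild-type cells (log2 change -1.18 ± 0.14, edgeR adjusted p = 5.43e-05). KCNK6, a relative of KCNK1, was at 14.6 and 16.1 CPM in resistant cells against 42.4 and 48.2 CPM in wild-type cells (log2 change -1.56 ± 0.14, edgeR adjusted p = 5.67e-06). In both genes every resistant library lay below every wild-type library, where libraries of the groups did not overlap in 73.6% of all tested genes. Of the 49 tested genes within 1 Mb of KCNK6 on chromosome 19, 1 was higher and 24 were lower, with a median log2 change of -0.50. By CPM per kb, KCNK1 made up 88.1% and 88.3% of the sum of KCNK1, KCNK3, KCNK5 and KCNK6 in resistant cells, against 72.5% and 70.3% in wild-type cells.

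The remaining tandem pore genes were scarce. KCNK15 on chromosome 20 (44745780 to 44752313) had no reads in either resistant library, against 35 and 26 counts in wild-type cells, at least 32.4-fold lower. It passed the filter on low counts through the wild-type libraries alone. A difference was thus fixed in advance, and its place among the falls is not support. KCNK13 was at 0.225 and 0.325 CPM in resistant cells against 1.31 and 1.23 CPM in wild-type cells, and KCNK12, its close relative, at 0.285 and 0.409 CPM in resistant cells against 1.41 and 1.44 CPM in wild-type cells. The log2 change was -2.19 ± 0.47 for KCNK13 (edgeR adjusted p = 0.00303) and -2.02 ± 0.44 for KCNK12 (0.0032). The span of KCNK12 is wholly covered by other annotated genes, so its counts are less certain. The mechanosensitive channel genes KCNK2 and KCNK10 had log2 changes of 1.56 ± 0.86 and 1.71 ± 0.95 and did not pass (edgeR adjusted p = 0.162 and 0.167). KCNK16 and KCNK9 had at most 4 counts in a library, and KCNK4, KCNK7, KCNK17 and KCNK18 were listed at 0.

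**Figure D3:**
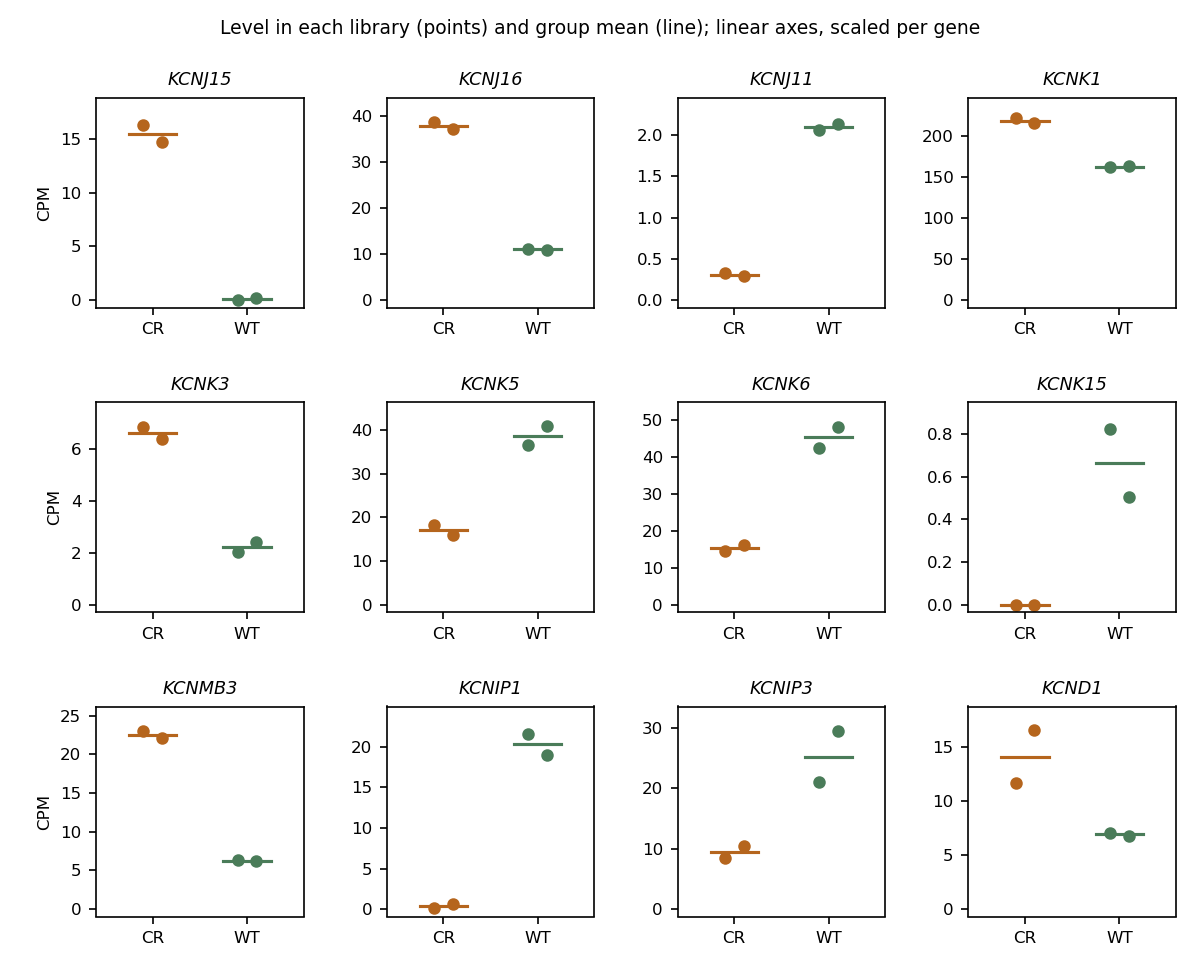
Level in CPM of 12 potassium channel genes in each library (points), with the group mean as a line, resistant cells (CR) left of wild-type cells (WT) and a linear axis scaled for each gene. The groups do not overlap in any of these genes, which were picked from the called ones. Over all tested genes this held for 73.6%.

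Among calcium-activated channel genes, the BK subunit gene KCNMB3 and the SK pore gene KCNN1 rose and the BK subunit gene KCNMB4 fell. KCNMA1, the BK pore opened by calcium and voltage, was at 9.16 and 8.97 CPM in resistant cells against 10.2 and 12.97 CPM in wild-type cells, which did not pass (log2 change -0.35 ± 0.17, edgeR adjusted p = 0.12). KCNMB3, a beta subunit that can inactivate the BK pore, was at 23.0 and 22.1 CPM in resistant cells against 6.31 and 6.25 CPM in wild-type cells. It rose by 1.84 ± 0.15 on the log2 scale (edgeR adjusted p = 3.29e-06). KCNMB4, the beta subunit best known from neurons, was at 13.2 and 14.6 CPM in resistant cells against 20.2 and 17.8 CPM in wild-type cells (log2 change -0.45 ± 0.15, edgeR adjusted p = 0.0309). The call of KCNMB4 was lost without wild-type replicate 1 (edgeR adjusted p = 0.23), wild-type replicate 2 (0.0529) or resistant replicate 1 (0.1). By CPM per kb, KCNMB3 made up 48.7% and 45.1% of the sum of KCNMB3 and KCNMB4 in resistant cells, against 14.5% and 16.0% in wild-type cells. KCNMB3 lies on chromosome 3 (179236691 to 179267002) and overlaps PIK3CA. Other genes cover 18.6% of its span and share 47.5% of its exon bases, so its counts and its level per kb are less certain. Of the 12 tested genes within 1 Mb, 2 were higher and 0 lower. KCNMB2 had at most 2 counts in a library, while KCNMB1, which lies wholly within KCNIP1, and KCNU1 were listed at 0.

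KCNN4, the IK channel that sets the membrane potential of lymphocytes and many carcinoma lines, was at 46.1 and 58.9 CPM in resistant cells against 38.3 and 43.9 CPM in wild-type cells. It did not pass (log2 change 0.35 ± 0.15, edgeR adjusted p = 0.0706), although the groups did not overlap, as in 73.6% of all tested genes. Its log2 change was 0.53 without resistant replicate 1, which passed (edgeR adjusted p = 0.00483), and 0.17 without resistant replicate 2 (0.373). It also passed with no filter on low counts (0.0252) and with a replicate block (0.0079). KCNN1, a small-conductance channel gene, rose by 2.06 ± 0.53 on the log2 scale, at 0.75 and 1.12 CPM in resistant cells against 0.211 and 0.234 CPM in wild-type cells (edgeR adjusted p = 0.00794, and 0.115 without resistant replicate 2). KCNN2 and KCNN3 had at most 28 counts in a library and did not pass. The sodium-activated genes KCNT1 and KCNT2 were both lower. KCNT2 had 0 and 1 counts in resistant cells against 23 and 11 in wild-type cells, a ratio of wild-type over resistant of 54.2 with a 95% counting interval of 9.1 to 2204 (edgeR adjusted p = 0.00338, and 0.0532 without resistant replicate 1). KCNT1 was at 0.375 and 0.457 CPM in resistant cells against 0.845 and 1.99 CPM in wild-type cells (log2 change -1.77 ± 0.49, edgeR adjusted p = 0.0129), and its log2 change was -1.01 without wild-type replicate 2 (edgeR adjusted p = 0.207).

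KCNQ genes, whose products carry slow voltage-gated currents, had 0 of 5 tested higher and 2 lower, or 40.0% called against 45.3% of all tested genes. The most abundant, KCNQ3, was at 17.8 ± 3.6 CPM in resistant cells and 16.4 ± 0.131 CPM in wild-type cells, a log2 change of 0.12 ± 0.17 that did not pass (edgeR adjusted p = 0.603). KCNQ5 was at 0.66 and 0.216 CPM in resistant cells against 2.58 and 1.99 CPM in wild-type cells (log2 change -2.40 ± 0.48, edgeR adjusted p = 0.00199), with -3.38 without resistant replicate 1 and -1.78 without resistant replicate 2. KCNQ1, the slow potassium channel of heart and of salt-transporting epithelia, was at 0.795 and 0.998 CPM in resistant cells against 1.36 and 2.32 CPM in wild-type cells (log2 change -1.04 ± 0.37, edgeR adjusted p = 0.0408). That call was lost with DESeq2 (adjusted p = 0.0602), without wild-type replicate 2 (-0.59, edgeR adjusted p = 0.331), without resistant replicate 1 (-0.88, 0.149) and without resistant replicate 2 (-1.21, 0.0529). Of the 32 tested genes within 1 Mb of KCNQ1 on chromosome 11, 0 were higher and 16 lower, with a median log2 change of -0.50. The noncoding KCNQ1OT1, which lies wholly within KCNQ1, was listed at 0.

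**Figure D4:**
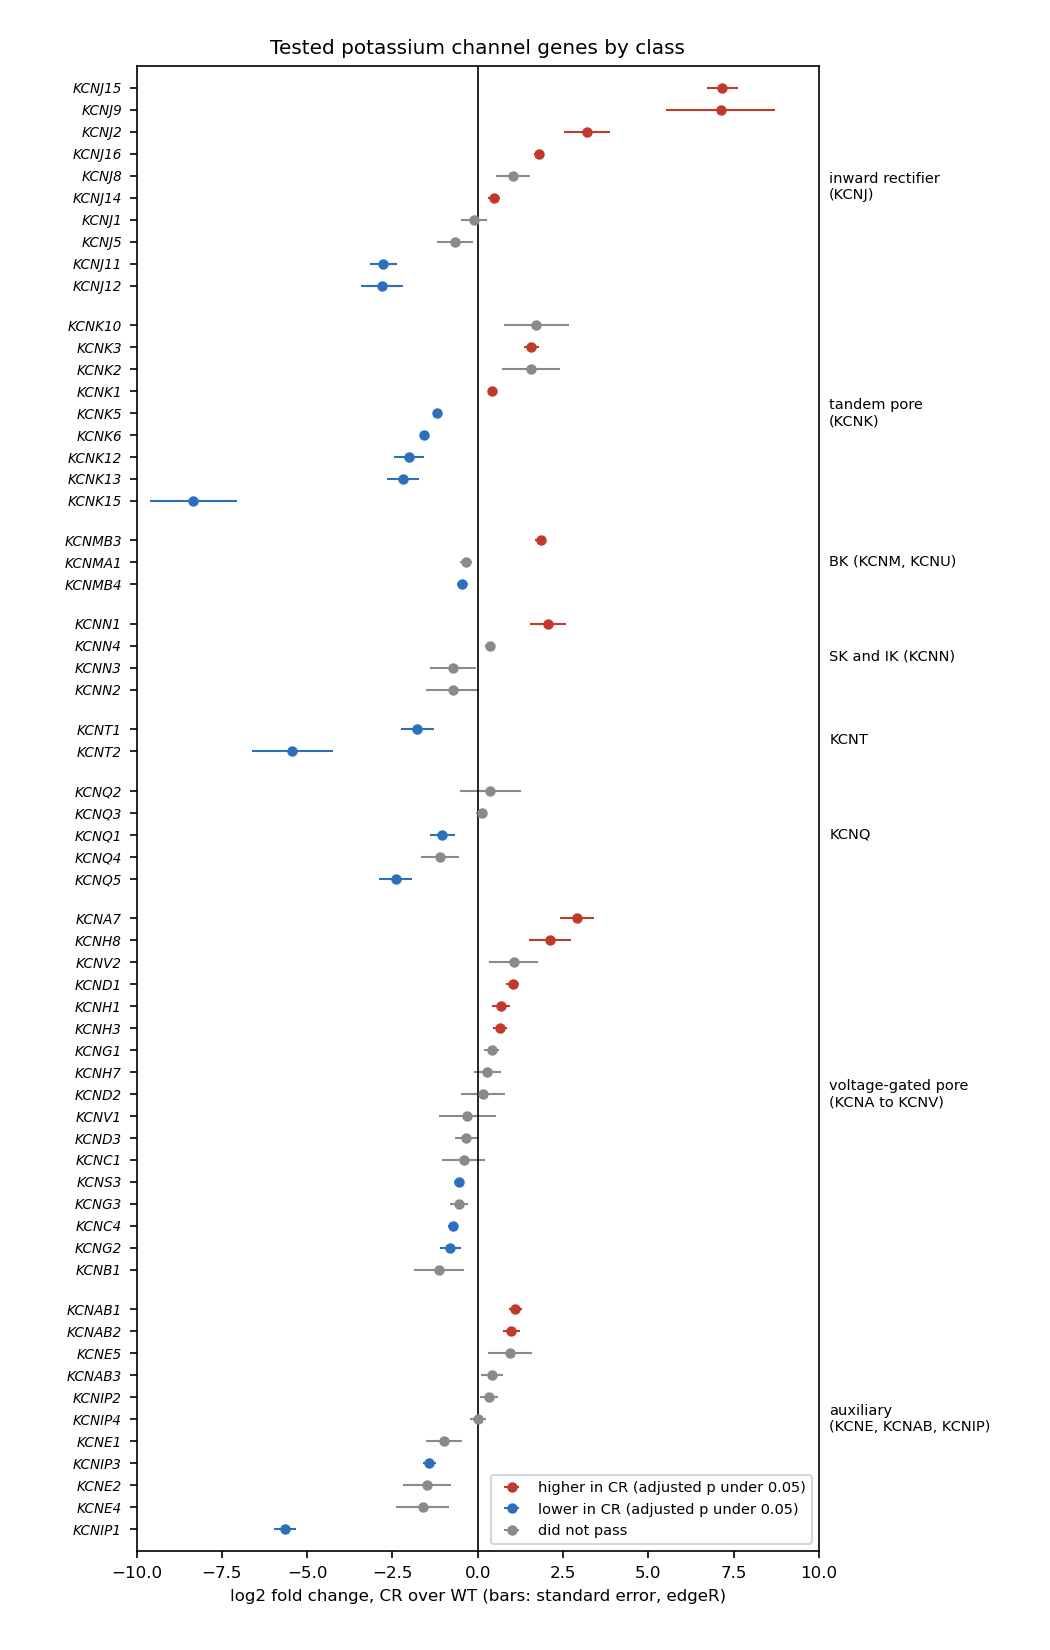
Log2 fold change of resistant over wild-type cells (CR over WT) for the tested potassium channel genes by class, leaving out 1 that is not reported here, with edgeR standard errors as bars. Red points were higher and blue points lower in resistant cells, and the points of KCNJ9 and KCNK15 are fitted values against a group without reads, so their place on the axis depends on the fit.

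Among voltage-gated pore genes of the KCNA to KCNV families, 5 of 18 tested were higher and 4 lower, with a median log2 change of -0.08. The share called in this class was close to that of all tested genes, where 45.3% were called (22.1% higher and 23.2% lower). KCND1, a pore of transient A-type current, was at 11.6 and 16.5 CPM in resistant cells against 7.07 and 6.76 CPM in wild-type cells (log2 change 1.03 ± 0.19, edgeR adjusted p = 0.00138). Its relatives KCND2 and KCND3 did not pass (edgeR adjusted p = 0.866 and 0.462). KCNA7, a Shaker family pore, was at 1.25 and 1.35 CPM in resistant cells against 0.188 and 0.156 CPM in wild-type cells (log2 change 2.91 ± 0.49, edgeR adjusted p = 0.000621). KCNH8, of the ether-a-go-go family, was at 1.33 and 0.878 CPM in resistant cells against 0.423 and 0.0974 CPM in wild-type cells (log2 change 2.12 ± 0.62, edgeR adjusted p = 0.0162). For KCNH8 the log2 change was 1.79 without resistant replicate 1 (edgeR adjusted p = 0.105), 3.49 without wild-type replicate 1 and 1.38 without wild-type replicate 2. The related KCNH1 and KCNH3 rose by 0.68 ± 0.25 and 0.65 ± 0.20. Within 1 Mb of KCNH1, 8 of 20 tested genes were higher and 3 lower, with a median log2 change of 0.53. KCNH1, 61.1% of whose span other genes cover, lost its call with DESeq2 (adjusted p = 0.0737), without wild-type replicate 2 (edgeR adjusted p = 0.274) and without resistant replicate 1 (0.138), and KCNH3 without wild-type replicate 1 (0.0625) and without resistant replicate 2 (0.101). The heart channel gene KCNH2 had 1 and 1 counts in resistant cells against 7 and 1 in wild-type cells and was not tested.

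Among the genes of this class that fell, KCNC4, a pore of fast potassium current in neurons, was at 16.9 and 17.6 CPM in resistant cells against 28.8 and 28.5 CPM in wild-type cells (log2 change -0.73 ± 0.14, edgeR adjusted p = 0.0012). KCNS3, an electrically silent modifier subunit, was at 10.8 and 10.3 CPM in resistant cells against 15.2 and 15.7 CPM in wild-type cells (log2 change -0.54 ± 0.15, edgeR adjusted p = 0.0126, and 0.0749 without wild-type replicate 2). Within 1 Mb of KCNS3 on chromosome 2, 5 other genes were tested. Among these, 0 were higher and 5 lower, with a median log2 change of -1.37. KCNG2, another modifier, fell by 0.81 ± 0.30 (edgeR adjusted p = 0.0474), and its adjusted p was 0.0784 with DESeq2. Its edgeR adjusted p was 0.231, 0.0582 and 0.185 without wild-type replicate 2, resistant replicate 1 and resistant replicate 2. A further 9 genes of the class had reads but were not tested and 7 were listed at 0, KCNA2, KCNA3 and KCNA5 among them. Of those with reads, KCNA4 had 1 and 0 counts and KCNH6 0 and 8 counts in resistant cells, with none in wild-type cells.

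Auxiliary subunit genes had 2 of 11 tested higher and 2 lower, with a median log2 change of -0.0009. The share called was 36.4%, where it was 45.3% over all tested genes. KCNIP1 lies on chromosome 5 (ENSG00000182132, 170353487 to 170736632) and encodes a KChIP protein that binds the KCND pores and slows their inactivation. It had 13 and 48 counts, or 0.195 and 0.577 CPM, in resistant cells, against 920 and 973 counts, or 21.6 and 18.9 CPM, in wild-type cells. Both wild-type libraries were high and both resistant libraries low. The log2 change was -5.65 ± 0.33 (edgeR adjusted p = 1.8e-07), with -5.12 without resistant replicate 1 and -6.67 without resistant replicate 2. Of the 6 tested genes within 1 Mb of KCNIP1, 1 was higher and 3 were lower, with a median log2 change of -0.23.

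Both promoter windows of KCNIP1 are shown because they differ in their content of CG dinucleotides, the sites of DNA methylation, which are in capitals. They are RefSeq sequences on GRCh38.p14, plus strand, 5′ to 3′, at chr5:170353237-170353536 (outer start) and chr5:170503770-170504069 (inner start).
KCNIP1 outer start: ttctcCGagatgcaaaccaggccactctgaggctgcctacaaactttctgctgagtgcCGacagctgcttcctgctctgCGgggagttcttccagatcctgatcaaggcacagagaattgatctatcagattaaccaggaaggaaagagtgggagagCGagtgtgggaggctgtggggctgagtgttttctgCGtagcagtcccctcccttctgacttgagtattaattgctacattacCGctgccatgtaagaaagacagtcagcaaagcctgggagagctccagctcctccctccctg
KCNIP1 inner start: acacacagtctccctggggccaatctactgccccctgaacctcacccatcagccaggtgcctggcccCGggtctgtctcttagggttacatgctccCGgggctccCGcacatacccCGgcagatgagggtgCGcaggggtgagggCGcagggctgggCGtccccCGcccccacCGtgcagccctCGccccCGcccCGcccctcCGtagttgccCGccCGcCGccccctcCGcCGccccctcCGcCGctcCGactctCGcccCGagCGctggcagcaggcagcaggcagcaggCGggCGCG
The outer window holds 6 CG dinucleotides and the inner window 27, where the median of all promoter windows is 14. Methylation was not measured in this study, and the counts do not separate the starts.

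KCNIP3, which also acts as a calcium-dependent transcription repressor, was at 8.47 and 10.5 CPM in resistant cells against 21.1 and 29.5 CPM in wild-type cells (log2 change -1.42 ± 0.19, edgeR adjusted p = 0.000131). KCNIP2 and KCNIP4 did not pass, with log2 changes of 0.34 ± 0.26 and -0.0009 ± 0.23 (edgeR adjusted p = 0.325 and 0.998). By CPM per kb, KCNIP1 made up 2.08% and 5.79% of the sum of the 4 KCNIP genes in resistant cells, against 61.7% and 52.1% in wild-type cells. DPP6, the other main kind of partner of the KCND pores, went the other way, at 30.2 and 28.7 CPM in resistant cells against 2.04 and 1.38 CPM in wild-type cells (log2 change 4.11 ± 0.21, edgeR adjusted p = 6.39e-08). The beta subunit gene KCNAB1 rose by 1.11 ± 0.18 on the log2 scale, at 9.6 and 10.5 CPM in resistant cells against 4.91 and 4.46 CPM in wild-type cells (edgeR adjusted p = 0.000494). KCNAB2 was at 4.17 and 3.34 CPM in resistant cells against 1.99 and 1.81 CPM in wild-type cells (log2 change 0.98 ± 0.25, edgeR adjusted p = 0.00841, and 0.0518 without resistant replicate 1). None of the tested KCNE genes passed (KCNE1, KCNE2, KCNE4 and KCNE5), each with at most 42 counts in a library, and KCNE3, which lies wholly within another gene, was listed at 0.

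**Figure D5:**
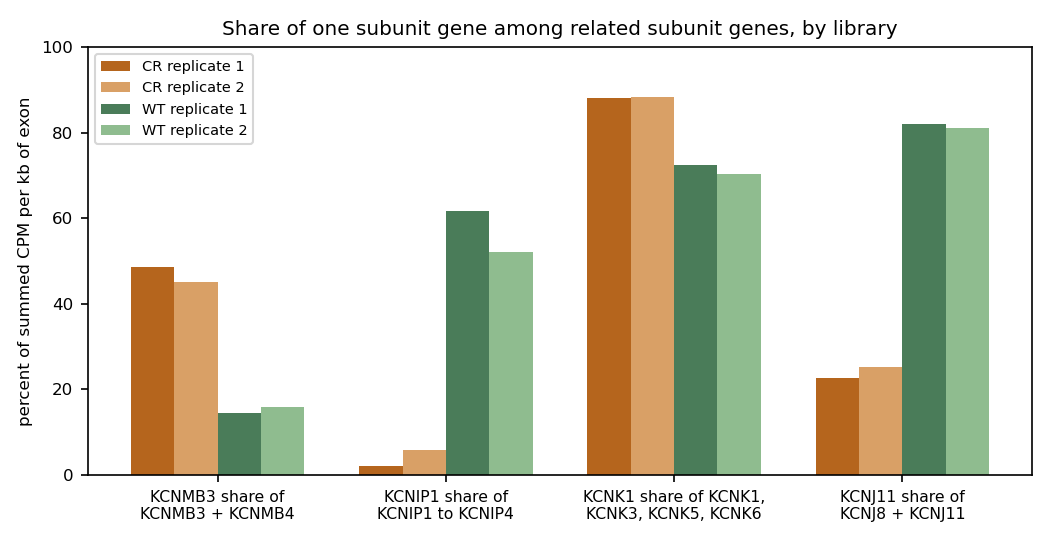
Share of 1 subunit gene in the summed CPM per kb of exon of related subunit genes, in percent, for each resistant (CR) and wild-type (WT) library. KCNMB3 and KCNK1 hold larger shares in both resistant libraries, and KCNIP1 and KCNJ11 smaller shares, than in either wild-type library.

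Neighbouring and overlapping genes limit some of these counts. Of the 95 protein-coding members placed in the annotation, 7 are over 99% covered by other genes, and 6 of these were listed at 0 in all libraries. Among the 80 that are at most 50% covered, 9 were listed at 0. Without members over 50% covered, 14 were higher and 17 lower. The libraries of the groups did not overlap in 50 of the 62 tested members, 24 with resistant cells above and 26 with resistant cells below, where this held for 73.6% of all tested genes.

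Genes that work beside the channels were read from lists chosen with earlier results known. Of 14 tested channel partners not named KCN, 4 were higher and 7 lower, set against the 45.3% called over all genes. The ubiquitin ligase NEDD4L, which removes several channels from the membrane, was lower (log2 change -1.52 ± 0.13, edgeR adjusted p = 3.12e-06), and the kinase SGK1, which restrains it, was higher (1.49 ± 0.16, edgeR adjusted p = 2.61e-05). TMEM38B, a potassium channel of the endoplasmic reticulum, was higher by 1.51 ± 0.14, while its relative TMEM38A had a log2 change of -1.75 ± 0.19 (edgeR adjusted p = 6.78e-06 and 3.2e-05). AMIGO1, an adhesion protein that partners KCNB pores, was lower (-1.40 ± 0.17, edgeR adjusted p = 6.57e-05).

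Of 16 tested potassium pumps, cotransporters and exchangers, 3 were higher and 2 lower, against the 45.3% of all tested genes called. The larger changes were falls in the sodium, calcium and potassium exchanger genes SLC24A4 (log2 change -2.84 ± 0.34, edgeR adjusted p = 5.81e-05) and SLC24A3 (-1.47 ± 0.18, edgeR adjusted p = 8.11e-05). The pump subunits ATP1B1 and ATP1B3 did not pass (edgeR adjusted p = 0.854 and 0.31), and the potassium chloride cotransporter gene SLC12A7 rose by 0.54 ± 0.17 on the log2 scale (edgeR adjusted p = 0.0211). In the WNK pathway, which sets the balance of chloride and potassium cotransport, 3 of 8 were higher and 1 lower, with WNK4 higher by 1.54 ± 0.20 and WNK2 at a log2 change of -2.74 ± 0.18 (edgeR adjusted p = 0.000112 and 5.82e-07). Of 7 tested relatives in the cyclic nucleotide-gated families, 1 was higher and 2 lower, or 42.9% called against 45.3% of all tested genes. The pacemaker channel gene HCN2 was at 18.9 and 22.0 CPM in resistant cells against 36.6 and 45.7 CPM in wild-type cells (log2 change -1.01 ± 0.15, edgeR adjusted p = 0.000308).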

How the data were processed

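RNA was measured in 2 cisplatin-resistant and 2 wild-type libraries of SKOV3. The deposited counts are whole reads per gene, not normalized. STAR 2.5.1a, HTSeq and DESeq, with build GRCh38.p7, are named in the submitters' processing notes; the settings of counting and the annotation were not stated in the sources used. A deposited normalized signal equals each count divided by 1 factor per library and served for 1 alternative only. Per the labels, the kit keeps strand, but whether counting used it is not given.

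The counts of all genes entered edgeR 4.0.16, run in R 4.3.3 (quasi-likelihood F test, TMM, filterByExpr with a minimum count of 10, group as the only term), with Benjamini-Hochberg adjustment over 18602 genes and a threshold of 0.05. The standard error is the log2 change over the square root of F. The fit was run on simulated data with changes placed only in genes above a count limit, so that run says little about scarce members. GENCODE release 29 (GRCh38) gave positions, exon lengths and overlaps. Members over 50% covered by other genes are called less certain. A group at 0 got a floor of 3 counts; intervals (95%, Clopper-Pearson) and floors cover counting error only. Members called, the 5 highest in wild-type cells and those at 0 in 1 group are named; other members were named to account for each class, after their values were seen. Values of some genes are not reported here. Members and lists were chosen with earlier results of these data known. Alternatives used limma 3.58.1, DESeq2 1.42.0, other size factors and filters, a replicate block and each library left out. Python 3.11.15 and matplotlib 3.10.9 made tables and figures.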

Additional observations from a re-analysis of the deposited data

How the results depend on the processing

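Under other size factors (DESeq2's or the authors'), other filters, the DESeq2 and limma-voom tests and the replicate block, between 11 and 18 members were higher and between 12 and 18 lower, and none of the 35 members followed singly (those called, and KCNN4) changed direction in any setting that gave a value, library omissions included; other members were not followed singly. With each library left out in turn, members called higher ran from 13 to 15 and members called lower from 14 to 16, with between 26 and 29 of the 34 calls kept; a lone library is then assumed to vary like the other group. A mean of at least 1 CPM left 34 members to test and 23 called. That filter left 4 calls in KCNJ, 4 in KCNK, 0 in KCNN and 0 in KCNT, since fewer genes were tested. Calls in KCNN numbered 2 with no filter and with the replicate block, where KCNN4 passed too. Calls in KCNQ numbered 1 with DESeq2, where KCNQ1 did not pass. Without 1 library, calls ran from 1 to 2 in the BK class, 0 to 2 in KCNN, 1 to 2 in KCNQ and 1 to 2 in KCNT. Deviations of same-numbered libraries correlated at 0.194 over 18602 genes, with too few pairs to show pairing; the replicate block gave 17 higher and 18 lower, with all 34 calls kept. Leaving out members over 50% covered gave 14 and 17. Of the 62 tested members, 28 lie below 1 CPM, which limits the precision of their changes.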
